A study of Homo sapiens with 54 samples.

Results

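IDO1, WARS1, GBP1 and GBP2 are 4 genes that interferon-gamma is known to switch on, and their transcripts were followed here in human colon cancer cells that met tumour necrosis factor (TNF), insulin or epidermal growth factor (EGF) after interferon-gamma. The genes were chosen by name, with earlier results of these data known. Every probe set that the platform annotation gives to their symbols was used. That made 6 of the 22215 probe sets that were not array controls. IDO1 (210029_at) and GBP2 (202748_at) had 1 probe set each, whereas WARS1 (200629_at and 200628_s_at) and GBP1 (202269_x_at and 202270_at) had 2 each. All 6 passed the filter on low signal, as did 13422 probe sets of the array, which stand for 8105 genes when each gene is counted once.

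HT-29 is an established line of colon adenocarcinoma cells with an epithelial character. All cultures, the controls included, had been seeded at 50000 cells per cm2 and had spent 24 h with interferon-gamma at 200 U/ml. They then received no other factor (called untreated below) or 1 of 8 additions, with all doses in ng/ml: insulin 500, EGF 100, TNF 5, TNF 100, TNF 100 with insulin 500, TNF 100 with EGF 100, TNF 5 with insulin 5, or TNF 5 with EGF 1. RNA taken 4, 8 and 16 h later was hybridised to Affymetrix human genome arrays in biological duplicate, so that 9 treatments and 3 times gave 27 groups and 54 arrays. Because no culture went without interferon-gamma, what interferon-gamma itself did to these genes cannot be read from the arrays.

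Interferon-gamma acts through its receptor and the JAK1 and JAK2 kinases on genes whose promoters carry GAS elements, and it raises IRF1, a transcription factor that binds ISRE elements. IDO1 encodes indoleamine 2,3-dioxygenase, which opens the ring of tryptophan in the first and rate-limiting step of the kynurenine pathway, and WARS1 encodes the cytosolic enzyme that loads tryptophan onto its transfer RNA. GBP1 and GBP2 encode guanylate-binding proteins, large GTPases of the dynamin superfamily that coat intracellular bacteria and the vacuoles that hold them. In the gut epithelium these genes are known as part of the defence that interferon-gamma sets up, while TNF signals mainly through NF-kB.

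Promoter sequence is shown for GBP1, which passed the TNF test described below, and for WARS1, which did not. RefSeq windows of the GRCh38.p14 build, each reaching from 250 bases before a transcription start to 50 bases after it, were matched by symbol for 2 of the 4 genes, GBP1 and WARS1. WARS1 has 2 windows, whose start sites lie 980 bases apart. The 250 bases before each start are printed 5′ to 3′ on the gene's strand, which is the minus strand in each case, with motif matches in capitals.
GBP1, chr1:89065209-89065458: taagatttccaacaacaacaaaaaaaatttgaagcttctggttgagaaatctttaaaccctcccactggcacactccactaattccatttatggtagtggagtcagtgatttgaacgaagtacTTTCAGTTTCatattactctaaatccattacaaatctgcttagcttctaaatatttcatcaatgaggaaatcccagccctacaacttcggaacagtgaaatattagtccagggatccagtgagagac
WARS1, downstream start, chr14:100375348-100375597: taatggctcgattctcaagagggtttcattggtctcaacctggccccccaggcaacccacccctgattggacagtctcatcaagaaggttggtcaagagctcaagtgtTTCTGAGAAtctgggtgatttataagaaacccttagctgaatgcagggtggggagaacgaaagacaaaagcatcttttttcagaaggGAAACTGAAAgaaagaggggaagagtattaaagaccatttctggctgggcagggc
WARS1, upstream start, chr14:100376328-100376577: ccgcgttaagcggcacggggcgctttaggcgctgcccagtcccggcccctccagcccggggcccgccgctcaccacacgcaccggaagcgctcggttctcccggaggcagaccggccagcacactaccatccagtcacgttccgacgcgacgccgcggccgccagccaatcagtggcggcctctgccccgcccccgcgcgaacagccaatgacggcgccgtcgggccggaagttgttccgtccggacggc

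These windows were searched on both strands for the ISRE core (GAAA, any 2 bases, GAAA), the GAS element TTCNNNGAA and the NF-kB consensus. GBP1 holds the ISRE core at position -127 from its start site, printed as TTTCAGTTTC because it lies on the other strand, where it reads GAAACTGAAA. The downstream WARS1 window holds the same letters, GAAACTGAAA, at -55 and the GAS element TTCTGAGAA at -142, and the 2 matches do not overlap. The upstream WARS1 window held none of these motifs, and no NF-kB consensus was found in any of the 3 windows. Of 35116 windows of 300 bases in the RefSeq table, 3.57% hold the ISRE core, 7.66% the GAS element, 5.91% the NF-kB consensus and 0.439% both the ISRE core and the GAS element. These matches are descriptions of letters and not measured binding sites. GBP2 and IDO1 are named without a sequence. On chromosome 1 GBP1 and GBP2 stand side by side in the order GBP3, GBP1, GBP2, GBP7, GBP4, GBP5 and GBP6.

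The 54 arrays carried the same trimmed mean of 500.2, median signals of 110.9 to 168 and correlations of 0.929 to 0.977, over probe sets, from one replicate of a group to the other. Of 13 colon epithelial markers 10 passed the filter, and KRT18 had a median signal of 25990. Of 9 haematopoietic markers on the array only LYZ, at 6704, had a median above that of all probe sets, while 2 of 6 fibroblast and 1 of 4 endothelial markers did. The summed haematopoietic signal was 4876 to 9478 in arrays without TNF and 5345 to 10677 in arrays with TNF, and its part in the results was not tested. The 9 replicate 2 arrays of 8 h had a median log2 ratio of 0.32 between 3′ and 5′ ACTB signal. A higher ratio can be a sign of shortened RNA. The replicate 2 arrays of 16 h had 0.31, and the other sets of 9 arrays had medians of -0.22 to 0.05. The GAPDH ratio was -0.1 to 0.48 in the replicate 2 arrays of 8 h and -0.22 to 0.35 in those of 16 h.

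A level below is the deposited MAS5 signal on its linear scale. A difference is on the log2 scale after 12.49 was added to each signal, ± is its standard error, and without a named time it is the mean of the differences at 4, 8 and 16 h, with n = 6 arrays per treatment. The adjusted p comes from limma's F test over the 3 times, with Benjamini-Hochberg adjustment over 13422 probe sets at a level of 0.05. This test can call a gene that differs at a single time. A called gene is counted as higher or lower by the sign of its difference. A gene with 2 probe sets is counted by the brighter one. A pair means 2 arrays of the same time and replicate number, a match that the main fit does not use. Fewer transcript-bearing cells and less transcript per cell cannot be told apart in such bulk RNA.

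TNF raised IDO1, GBP2 and, by the brighter of its 2 probe sets, GBP1 in cells already primed with interferon-gamma. WARS1 did not pass the test, and by its other probe set GBP1 did not pass at 100 or 5 ng/ml. With TNF at 100 ng/ml 3 of the 4 genes were called higher, against 6.69% of all probe sets called higher and 16.3% called in either direction. With TNF at 5 ng/ml the same 3 genes were called higher, against 4.26% called higher and 6.81% in either direction. At single times TNF 100 gave calls for GBP1 and GBP2 at 4 h (4.37% of probe sets called) and for IDO1, GBP1 and GBP2 at 8 h (5.63%) and 16 h (12.3%). TNF 5 gave a call for GBP2 at 4 h (1.88%) and for the same 3 genes at 8 h (2.91%) and 16 h (4.87%). Among 8105 genes ranked by the size of the rise at 100 ng/ml, IDO1 stood at 65, GBP2 at 190, GBP1 at 209 and WARS1 at 952. The median difference of all genes was -0.087 in that comparison. Of its 2194 called probe sets 898 were higher, against 852 of 1454 after each array was centred on its median.

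**Figure D1:**
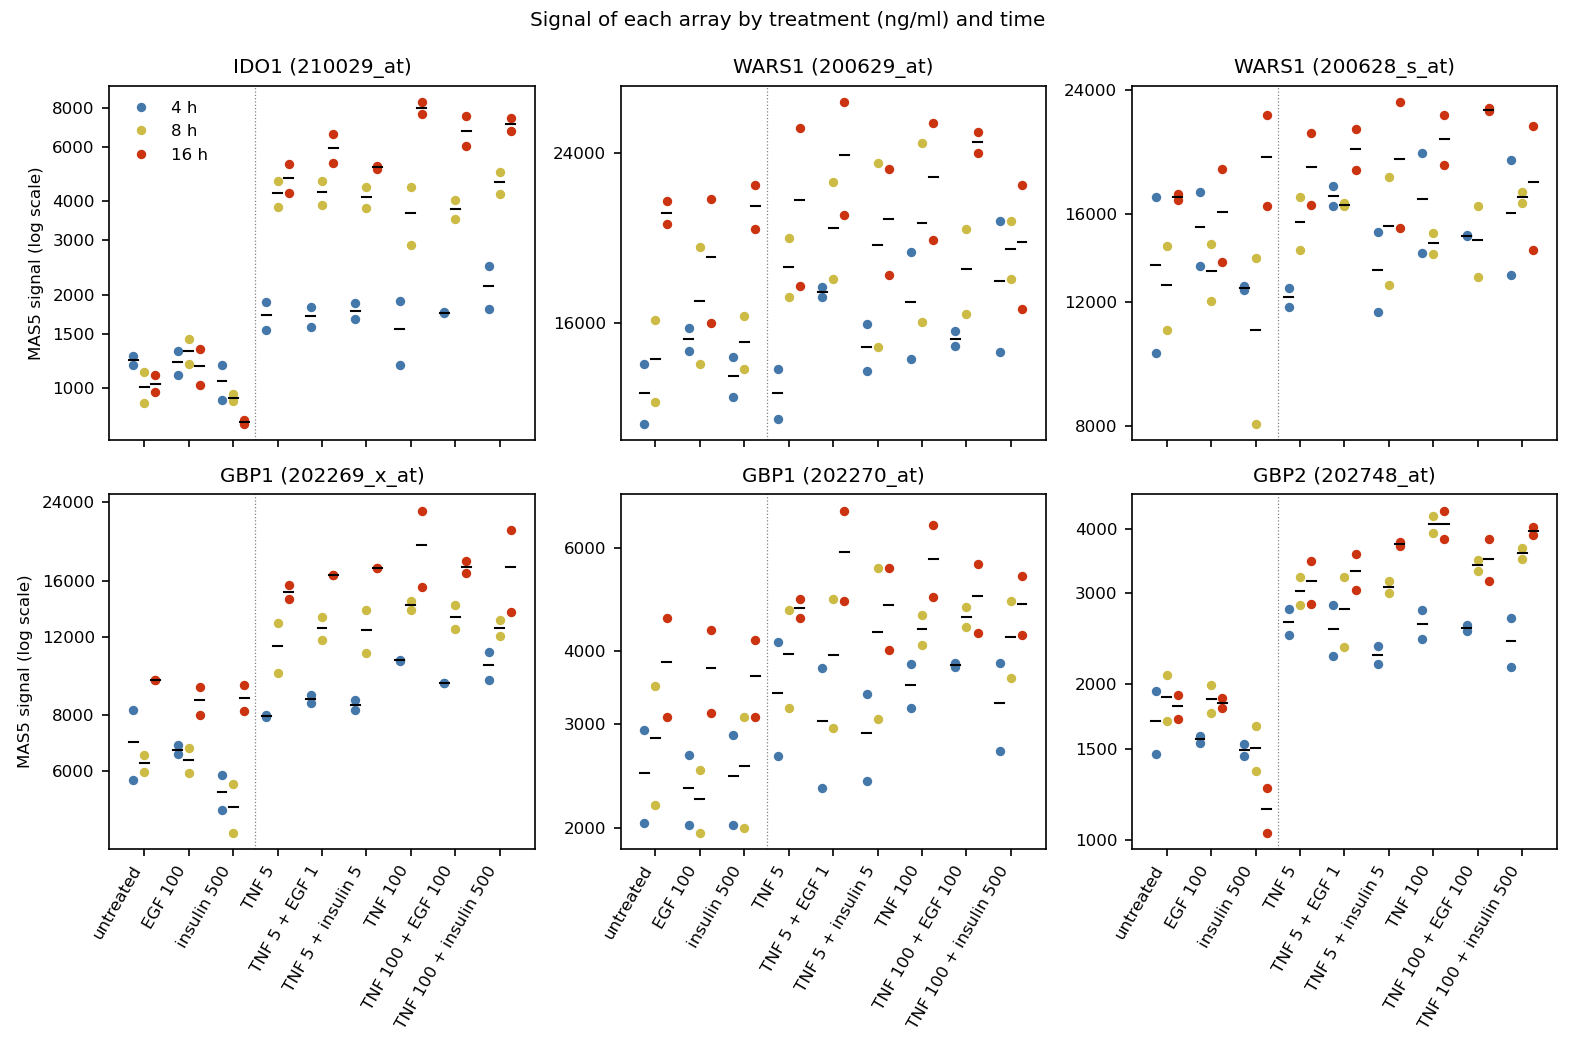
MAS5 signal of every array on a log axis, by treatment (ng/ml) and time, for the 6 probe sets; points are the 2 replicates of a group, bars are their mean and the dotted line parts the treatments without TNF from those with it. IDO1 with TNF climbs from 4 h to 16 h, and every GBP2 array with TNF lies above every array without it. The range of WARS1 arrays with TNF overlaps that of arrays without it at each time.

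IDO1 had the largest TNF difference of the 4 genes as a mean over the 3 times and at 8 and 16 h. At 4 h with TNF 100 its difference, 0.29, was below those of GBP1 and GBP2, 0.63 each. In untreated cells the 2 arrays read 1271 and 1185 at 4 h, 1126 and 893 at 8 h, and 1099 and 970 at 16 h. With TNF at 100 ng/ml they read 1905 and 1187 at 4 h, 4458 and 2890 at 8 h, and 8349 and 7641 at 16 h. At 4 h the lower TNF array, at 1187, lay between the untreated arrays, and at 8 and 16 h the groups did not overlap. IDO1 differed by 0.29 ± 0.21 at 4 h (adjusted p = 0.68) and rose by 1.83 ± 0.21 at 8 h (9.07e-08) and by 2.94 ± 0.21 at 16 h (6.58e-13), which was a 7.65-fold rise. Over the 3 times IDO1 rose by 1.68 ± 0.12 (adjusted p = 6.83e-14), or 3.21-fold, in 6 of 6 pairs.

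At 5 ng/ml TNF, IDO1 read 1900 and 1536 at 4 h, 4651 and 3826 at 8 h, and 5289 and 4254 at 16 h. All 6 of these arrays lay above the highest untreated array. IDO1 rose by 1.57 ± 0.12 (adjusted p = 5.61e-12), with 0.47 ± 0.21 at 4 h (adjusted p = 0.479), 2.06 ± 0.21 at 8 h (1.04e-08) and 2.19 ± 0.21 at 16 h (1.91e-09). Between the 2 TNF doses, which differ only in concentration, none of the 4 genes passed, against 1.27% of all probe sets. IDO1 differed by 0.11 ± 0.12 (95% interval -0.13 to 0.36, adjusted p = 0.185), lower with the higher dose by 0.18 at 4 h and 0.23 at 8 h and higher by 0.75 ± 0.21 at 16 h (adjusted p = 0.12). At 16 h both TNF 100 arrays lay above both TNF 5 arrays, an order for which no share over all probe sets was computed. With the replicate number as a block at 8 h the 16 h difference passed (adjusted p = 0.0402). That block was chosen after seeing the data and does not model any pairing of the 16 h arrays, so no dose difference is concluded from it.

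No growth factor comparison of IDO1 passed. EGF alone differed from untreated cells by 0.18 ± 0.12 (95% interval -0.06 to 0.42, adjusted p = 1). Insulin alone gave the lowest mean IDO1 signal of the 9 treatments at each time, 1052 at 4 h, 932 at 8 h and 776 at 16 h, with 787 and 766 in the 2 arrays of 16 h. That difference, -0.25 ± 0.12 with 5 of 6 pairs lower, did not pass (adjusted p = 1). EGF added to TNF 100 differed from TNF 100 by 0.01 ± 0.12 (adjusted p = 1) and insulin added to TNF 100 by 0.22 ± 0.12 (adjusted p = 0.594). The TNF 5 mixtures with EGF 1 and insulin 5 differed from TNF 5 by 0.11 ± 0.12 and 0.04 ± 0.12 (adjusted p = 1 for each).

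IDO1 also rose with TNF 100 against the matching growth factor. The rise was 1.52 ± 0.12 in EGF-treated cells (adjusted p = 5.58e-12) and 2.15 ± 0.12 in insulin-treated cells (1.16e-15), each in 6 of 6 pairs. The insulin value exceeded the rise without insulin by 0.47 ± 0.17, an interaction that did not pass (adjusted p = 0.914). No interaction of TNF with insulin (0.00745% of probe sets called) or with EGF (0.0298%) passed for any of the 4 genes. Across all arrays 35 of the 36 with TNF lay above the highest of the 18 without TNF, at 1440, and the exception was TNF 100 at 4 h in replicate 2. In the order of the 27 group means, from 776 to 7995, 4 of 26 neighbouring groups did not overlap in their arrays. No share over all probe sets was computed for this count or for the 35 of 36 arrays. The same holds for the neighbour counts of the other genes below. At 16 h the widest step, 2.01 on the log2 scale, lay between EGF 100 and TNF 5.

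In untreated cells IDO1 did not pass the test over time, and 16 h differed from 4 h by -0.25 ± 0.21 (adjusted p = 0.668). Under TNF 100 it rose from 4 h to 16 h by 2.40 ± 0.21 (adjusted p = 4.77e-10) and under TNF 5 by 1.47 ± 0.21 (2.98e-06). The TNF difference itself depended on time. Its value at 16 h exceeded that at 4 h by 2.65 ± 0.29 for TNF 100 (adjusted p = 8.29e-07) and by 1.71 ± 0.29 for TNF 5 (0.000573). Of the 4 genes, IDO1 alone passed this test at either dose, against 2.44% of all probe sets for TNF 100 and 0.916% for TNF 5.

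**Figure D2:**
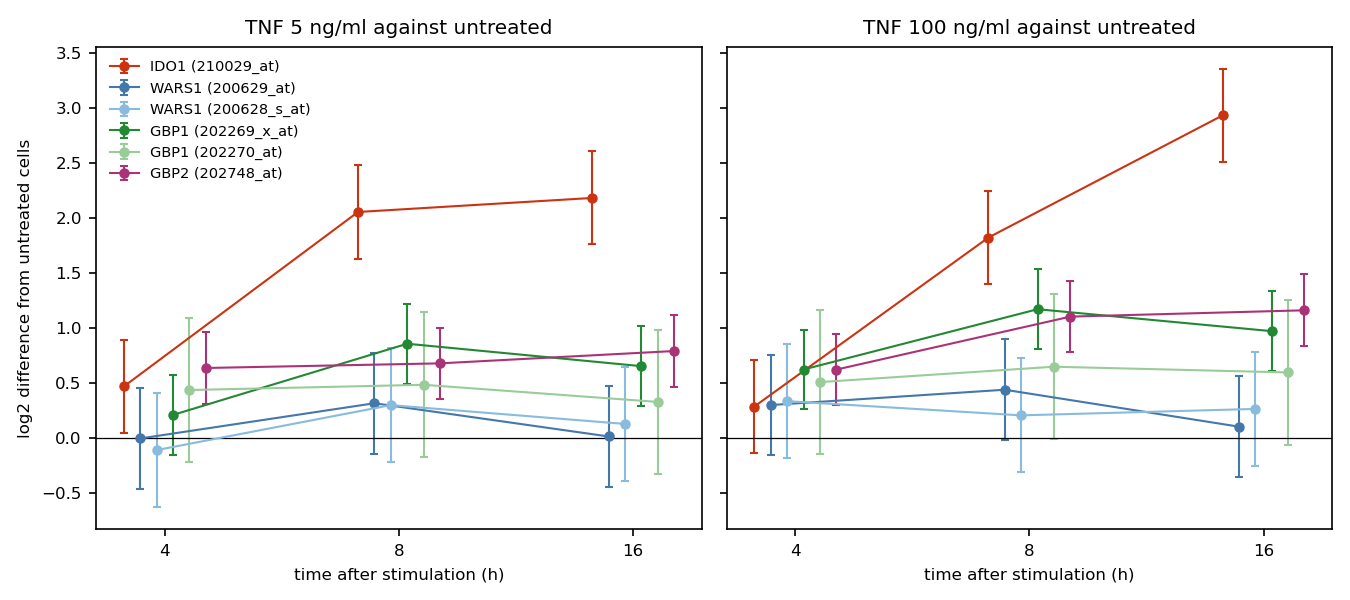
Log2 difference between TNF-treated and untreated cells at 4, 8 and 16 h for the 6 probe sets, at 5 ng/ml (left) and 100 ng/ml (right); points are estimates from 2 arrays per group and bars 95% intervals. IDO1 goes from 0.29 at 4 h to 2.94 at 16 h with 100 ng/ml, GBP1 and GBP2 stay between 0.21 and 1.17, and the intervals of WARS1 reach 0 at every time.

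GBP2 rose with TNF at both doses, and every array with TNF read above every array without it. The untreated arrays read 1466 and 1940 at 4 h, 1699 and 2088 at 8 h, and 1715 and 1910 at 16 h. With TNF 100 they read 2781 and 2449 at 4 h, 3917 and 4234 at 8 h, and 3829 and 4336 at 16 h. With TNF 5 they read 2488 and 2794, 3226 and 2847, and 2859 and 3469 at the same times. Both TNF arrays read above both untreated arrays at each time, which held for 2.18% of probe sets with TNF 100 and 1.31% with TNF 5.

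GBP2 rose by 0.97 ± 0.09 with TNF 100 (adjusted p = 4.84e-09), or 1.95-fold, and by 0.71 ± 0.09 with TNF 5 (1.29e-05), each in 6 of 6 pairs. TNF 100 gave 0.63 at 4 h, 1.11 at 8 h and 1.17 at 16 h. Its 4 h value passed (adjusted p = 0.0156) but not without replicate 1 of untreated cells (0.301) or of TNF 100 (0.223) at 4 h. TNF 5 gave 0.64 at 4 h, 0.68 at 8 h and 0.79 at 16 h, with adjusted p of 0.0219, 0.011 and 0.00118. Each of those 3 calls rested on single arrays. The 4 h one was lost without untreated replicate 1 (0.461) or TNF 5 replicate 1 (0.0763) or 2 (0.355), the 8 h one without replicate 1 of untreated cells (0.207) or TNF 5 (0.14), and the 16 h one without TNF 5 replicate 2 (0.0676). With only the treatments compared in the fit, the 4 h value did not pass for TNF 100 (0.133) or TNF 5 (0.215), nor did the 8 h value for TNF 5 (0.127, and 0.135 after median centring). TNF 100 stood above TNF 5 by 0.26 ± 0.09 (95% interval 0.07 to 0.45), which did not pass (adjusted p = 0.285).

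Over all treatments the 36 arrays with TNF lay between 2157 and 4336 and the 18 without it between 1034 and 2088. Such a separation over all arrays held for 0.492% of probe sets, and within 4 h alone for 1.6%. The rise with TNF 100 was 0.82 ± 0.09 in EGF-treated cells (adjusted p = 3.61e-07) and 1.24 ± 0.09 in insulin-treated cells (4.9e-12). In EGF-treated cells 14.4% of probe sets were called and in insulin-treated cells 20.3%, and IDO1, GBP1 and GBP2, 3 of the 4 genes, were among them in each case.

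With insulin alone GBP2 had its lowest mean signal of the 9 treatments at each time, 1494 at 4 h, 1510 at 8 h and 1147 at 16 h, where the arrays read 1034 and 1260. At 16 h both arrays lay below both untreated arrays. The difference of -0.39 ± 0.09, lower in 6 of 6 pairs, did not pass (95% interval -0.57 to -0.20, adjusted p = 0.124). No share over all probe sets was computed for these orders of arrays and pair counts with insulin alone, nor for those of IDO1 and GBP1. None of the 4 genes passed for insulin alone, against 0.231% of all probe sets, and none for EGF alone, against 0.596%. GBP2 differed by -0.03 ± 0.09 with EGF alone, by -0.17 ± 0.09 with EGF added to TNF 100 and by -0.11 ± 0.09 with insulin added to TNF 100 (adjusted p of 0.984 to 1). None of the 4 genes passed when EGF (0.224% of probe sets called) or insulin (0.499%) was added to TNF 100, nor when EGF 1 or insulin 5 was added to TNF 5, where 0% were called by limma.

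In time, GBP2 rose from 4 h to 16 h under TNF 100 by 0.64 ± 0.16 (adjusted p = 0.00275). That call was lost without TNF 100 4 h replicate 2 (0.0795), after median centring (0.0534) and with only this treatment in the fit (0.0505). Under TNF 5 the difference was 0.26 ± 0.16 (adjusted p = 0.491) and in untreated cells 0.10 ± 0.16 (0.864). The dependence of the TNF 100 difference on time, 0.54 ± 0.23, did not pass (adjusted p = 0.426). Of 26 neighbouring groups in the order from 1147 to 4082, 4 did not overlap.

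GBP1 rose with TNF by its brighter probe set, while its second probe set showed a smaller difference that did not pass. By 202269_x_at the untreated arrays read 5731 and 8234 at 4 h, 5955 and 6523 at 8 h, and 9572 and 9593 at 16 h. With TNF 100 they read 10632 and 10599, 13761 and 14419, and 15475 and 22967. With TNF 5 they read 7927 and 8017, 12880 and 9966, and 14589 and 15669. The TNF 100 arrays lay above the untreated ones at each time, whereas at 4 h the TNF 5 arrays lay between the untreated ones.

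The difference for TNF 100 was 0.93 ± 0.10 (adjusted p = 1.41e-07), or 1.90-fold, in 6 of 6 pairs, and that for TNF 5 was 0.58 ± 0.10 (0.000437) in 5 of 6 pairs. The TNF 5 call was lost without the 8 h arrays (adjusted p = 0.0516). By time TNF 100 gave 0.63 at 4 h, 1.17 at 8 h (adjusted p = 1.94e-05) and 0.98 at 16 h (0.000152). The 4 h value (adjusted p = 0.0351) did not pass without untreated replicate 1 (0.493) or without TNF 100 replicate 1 (0.19) or 2 (0.157), nor without the filter (0.0655), without the intensity trend (0.0517) or with only these treatments fitted (0.211). TNF 5 gave 0.21 at 4 h (adjusted p = 0.897), but 0.86 at 8 h (0.00305) and 0.66 at 16 h (0.0227). Of these the 8 h call was lost without untreated replicate 1 (0.0558) or TNF 5 replicate 1 (0.117), and the 16 h call without any of its 4 arrays, untreated replicate 1 (0.142) and 2 (0.108) and TNF 5 replicate 1 (0.0759) and 2 (0.203).

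By 202270_at, GBP1 read 2033 and 2929 at 4 h, 2186 and 3491 at 8 h, and 3091 and 4562 at 16 h in untreated cells. With TNF 100 the arrays read 3197 and 3801, 4105 and 4607, and 4943 and 6571. Each TNF 100 array lay above both untreated arrays of its time, yet the replicates of a group lay far apart. Replicate 2 read higher than replicate 1 in 9 of 9 groups at 4 h, 9 of 9 at 8 h and 8 of 9 at 16 h. The difference was 0.59 ± 0.19 (adjusted p = 0.136), and it passed with the replicate number as a block at 8 h (0.0311). At TNF 5 it was 0.42 ± 0.19 (adjusted p = 0.584).

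With TNF 100 in EGF-treated cells GBP1 rose by 0.85 ± 0.10 by 202269_x_at (adjusted p = 7.89e-07) and by 0.72 ± 0.19 by 202270_at (0.0272). The latter call was lost without EGF 100 replicate 1 of 4 h (0.0638) or of 8 h (0.124), without the 8 h arrays of TNF 100 with EGF 100, replicate 1 (0.0586) or 2 (0.0938), and without all 8 h arrays (0.143). In insulin-treated cells the differences were 1.07 ± 0.10 (6.65e-09) and 0.53 ± 0.19 (0.163, and 0.0438 with the block at 8 h). Probe sets whose name ends in x_at can share probes with related transcripts, and GBP1 has close relatives beside it, so 202269_x_at may not measure GBP1 alone. Whether such sharing, or the replicate shift of 202270_at, plays a part in the gap between the 2 probe sets was not tested. The 2 probe sets correlated at 0.942 across the 27 group means.

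By 202269_x_at the 12 arrays with TNF and the 6 without it did not overlap at 8 h (9966 to 14419 against 4367 to 6742) or at 16 h (13610 to 22967 against 7995 to 9593). The same held for 2.28% of probe sets at 8 h and 3.93% at 16 h. At 4 h 9 of 12 TNF arrays lay above the highest other array, at 8234. Insulin alone differed from untreated cells by -0.27 ± 0.10, lower in 6 of 6 pairs, and did not pass (95% interval -0.48 to -0.06, adjusted p = 0.904). EGF alone differed by -0.06 ± 0.10 and TNF 100 from TNF 5 by 0.35 ± 0.10 (95% interval 0.14 to 0.56, adjusted p = 0.33). In the order from 4989 with insulin at 8 h to 19221 with TNF 100 at 16 h, 6 of 26 neighbouring groups did not overlap.

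GBP1 rose between 4 and 16 h under TNF 100 by 0.83 ± 0.18 (adjusted p = 0.00261) and under TNF 5 by 0.92 ± 0.18 (0.00116). Without TNF 100 16 h replicate 2 the former was 0.54 and did not pass (0.0906), nor did it with only this treatment in the fit (0.0916). Under TNF 100 3 of the 4 genes were called over time, all but WARS1, against 22.2% of all probe sets, and under TNF 5 2 of 4, IDO1 and GBP1, against 15.4%. In untreated cells 1 of 4 passed, GBP1, against 9.59%. Its difference there was 0.48 ± 0.18 (adjusted p = 0.0425), and the call was lost without untreated 8 h replicate 1 (0.114) or 2 (0.0681) or 16 h replicate 1 (0.224) or 2 (0.225). It was also lost without the filter (0.0786), after median centring (0.0838) and without the intensity trend (0.0621).

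**Figure D3:**
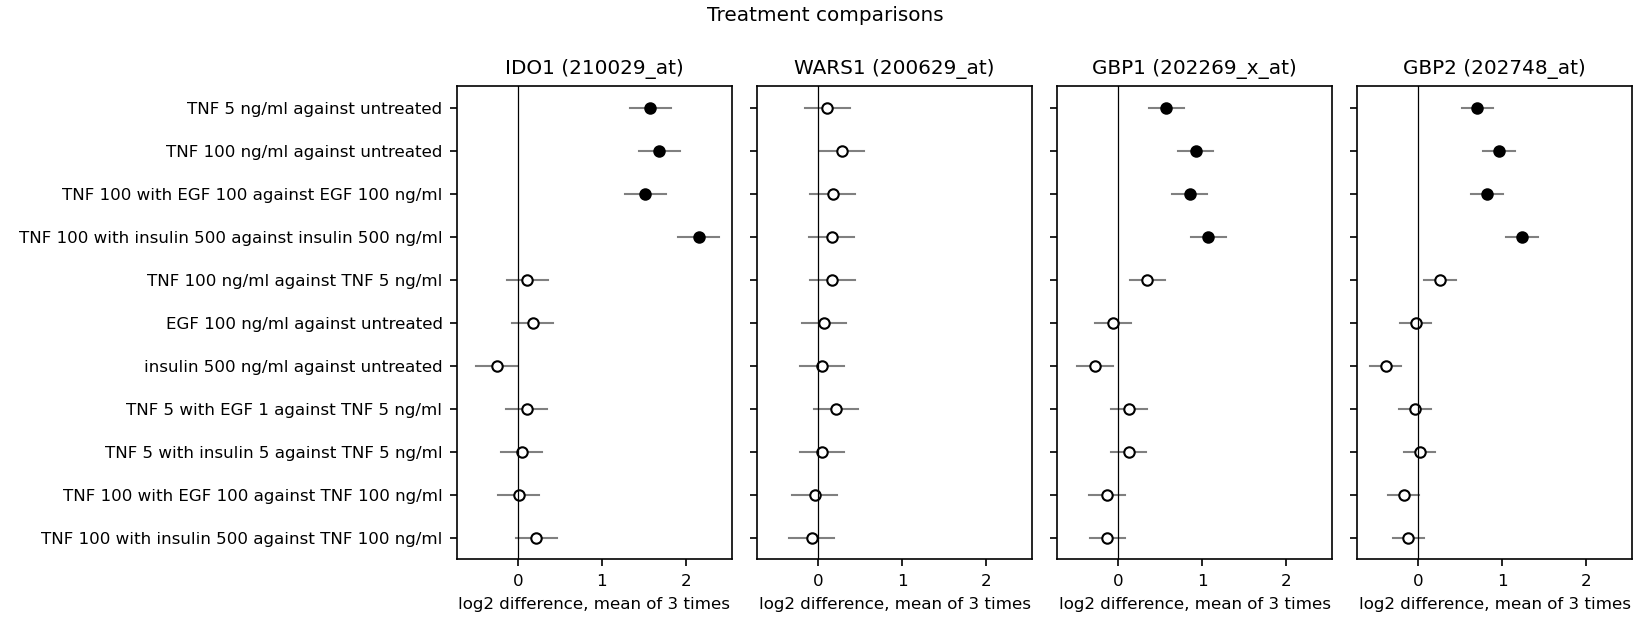
Log2 difference, mean of 4, 8 and 16 h, for 11 treatment comparisons and the probe set that counts each gene; lines are 95% intervals and filled points have an adjusted p under 0.05. The filled points are those of IDO1, GBP1 and GBP2 in the 4 comparisons of TNF with cells without TNF; no WARS1 point is filled.

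WARS1 was bright in every group, above the 98.25th percentile of each array by either probe set, and did not pass the TNF test. By 200629_at the untreated arrays read 14522 and 12586 at 4 h, 13277 and 16111 at 8 h, and 21412 and 20263 at 16 h. With TNF 100 they read 18975 and 14684, 16068 and 24617, and 19524 and 25789. With TNF 5 they read 12738 and 14352, 17025 and 19593, and 17478 and 25461. The TNF 100 arrays overlapped the untreated ones at 8 and 16 h and the TNF 5 arrays at 4 and 16 h.

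The difference was 0.28 ± 0.13 with TNF 100 (95% interval 0.02 to 0.55, adjusted p = 0.373) and 0.11 ± 0.13 with TNF 5 (-0.15 to 0.38, adjusted p = 0.873). By 200628_s_at it was 0.27 ± 0.15 (-0.03 to 0.57, adjusted p = 0.631) and 0.11 ± 0.15 (-0.19 to 0.41, adjusted p = 0.889). These intervals are for the mean of the 3 times. At 8 h alone, where 200629_at differed most with TNF 100, the difference was 0.44 ± 0.23 (-0.01 to 0.90, adjusted p = 0.322). In EGF-treated and insulin-treated cells TNF 100 differed by 0.18 ± 0.13 (adjusted p = 0.623) and 0.16 ± 0.13 (0.476) by 200629_at. By 200628_s_at the insulin value was 0.29 ± 0.15 (adjusted p = 0.151), and it passed after quantile normalization (0.0406) and without insulin 500 8 h replicate 1 (0.028). EGF alone differed by 0.07 ± 0.13 and insulin alone by 0.05 ± 0.13 (adjusted p = 1 for each).

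WARS1 read higher at 16 h than at 4 h with and without TNF, without passing the test. By 200629_at the arrays with TNF had a median of 15429 at 4 h, 18687 at 8 h and 22674 at 16 h, and those without TNF 14647, 15316 and 20837. In untreated cells 16 h stood above 4 h by 0.62 ± 0.23, and both 16 h arrays lay above both 4 h arrays. This did not pass (adjusted p = 0.134), but it passed with the replicate number as a block at 8 h (0.014), after quantile normalization (0.0382) and without the 8 h arrays (0.0442). Under TNF 5 the difference of 0.64 ± 0.23 did not pass (adjusted p = 0.11, and 0.0296 with the block at 8 h), nor did that of 0.43 ± 0.23 under TNF 100 (0.363). In the order from 13554 in untreated cells at 4 h to 24626 with TNF 100 and EGF 100 at 16 h, the arrays of all 26 neighbouring groups overlapped.

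The 2 WARS1 probe sets differed most in the replicate 2 arrays of 8 h. The log2 difference of 200629_at over 200628_s_at was 0.29 to 1.01 in the replicate 2 arrays of 8 h (median 0.45) and -0.12 to 0.33 in the replicate 1 arrays of 8 h (median 0.09). The ACTB ratio was 0.04 to 1.19 in the former and -0.26 to -0.08 in the latter. For GBP1 the difference of 202269_x_at over 202270_at was 0.5 to 1.64 in the former (median 1.26) and 1.44 to 2.16 in the latter (median 1.78). The replicate 2 arrays of 16 h, with an ACTB ratio of 0.02 to 0.43, had medians of 0.22 for WARS1 and 1.62 for GBP1. By 200629_at replicate 2 read above replicate 1 in 9 of 9 groups at 8 h, and by 200628_s_at in 3 of 9. The part of RNA quality in these values was not tested.

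**Figure D4:**
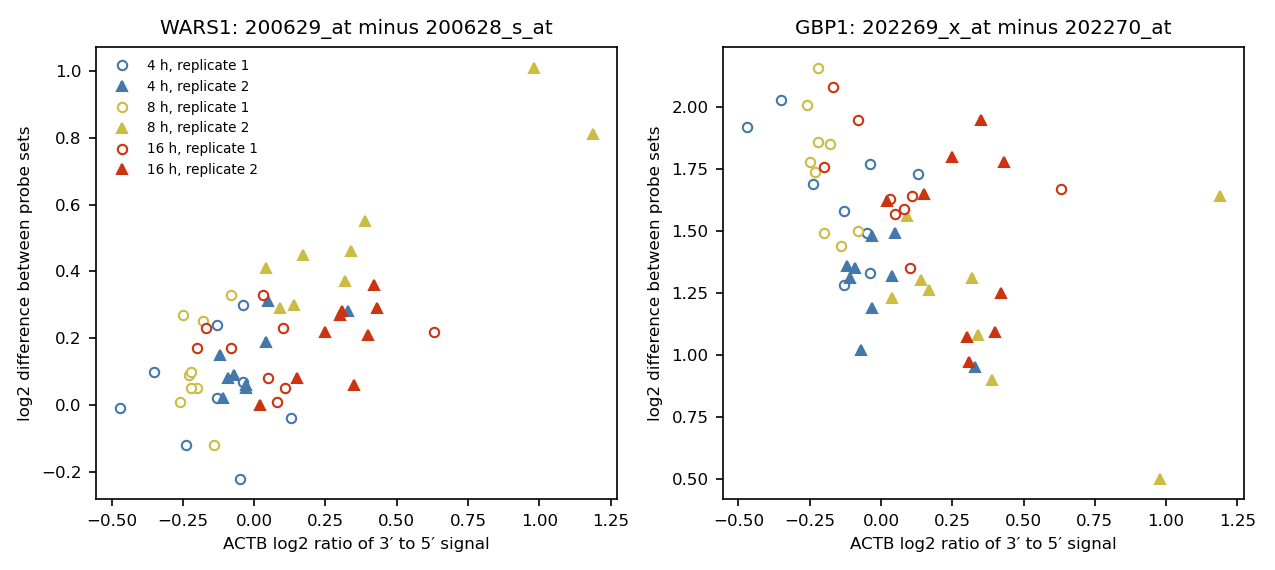
Log2 difference between the 2 probe sets of WARS1 (left) and of GBP1 (right) in each array, against the log2 ratio of 3′ to 5′ ACTB signal; colours mark time, open circles replicate 1 and triangles replicate 2. The 8 h replicate 2 arrays, at ACTB ratios of 0.04 to 1.19, hold the highest WARS1 value (1.01) and the lowest GBP1 value (0.5).

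The rest of the interferon-gamma pathway was described by lists that leave out the 4 genes. These lists, and those further below, were chosen with earlier results of these data known. The shares of all probe sets beside their counts are therefore a description and no test of the lists. Of 14 measured genes of the receptor and its signalling, 7 were higher with TNF 100, none lower, 7 not passing (6.69% of all probe sets were called higher and 16.3% in either direction), and the median difference was 0.515 against -0.087 for all genes. The receptor chain IFNGR2 rose by 2.16 ± 0.10 (adjusted p = 1.84e-17) and IFNGR1 by 1.39 ± 0.11 (1.2e-10). SOCS1, the feedback inhibitor of JAK kinases, rose by 1.16 ± 0.14 (1.32e-07) and the kinase JAK1 by 0.92 ± 0.13 (1.02e-05). IRF1, named after its values were seen, stood at 0.29 ± 0.10 and did not pass (adjusted p = 0.0996).

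Of 29 other classic interferon-gamma targets 18 were higher with TNF 100, against the same 6.69% of all probe sets, none lower and 11 not called; the median was 0.43. The T cell chemokine CXCL9 rose by 3.71 ± 0.08 (adjusted p = 8.58e-26), complement factor B (CFB) by 1.69 ± 0.10 (8.87e-16), GCH1, the first enzyme of tetrahydrobiopterin synthesis, by 1.52 ± 0.09 (1.11e-14) and the adhesion molecule ICAM1 by 2.07 ± 0.14 (1.64e-12). At TNF 5, 5 of the 14 signalling genes and 11 of the 29 targets were higher and none lower, against 4.26% of all probe sets called higher, with medians of 0.385 and 0.304 against -0.031 for all genes.

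Among other interferon-inducible or dynamin-like GTPases 5 were measured, and MX1 and MX2, antiviral relatives of dynamin, rose by 1.42 ± 0.12 and 1.31 ± 0.14 with TNF 100, while OPA1, which fuses the inner mitochondrial membrane, fell by 0.42 ± 0.11 (adjusted p = 5.1e-12, 7.07e-11 and 0.0413). The other guanylate-binding protein genes were not analysed here. MX1 went from 0.52 at 4 h to 2.62 at 16 h and MX2 from 0.37 to 3.03, and each was already higher with time in untreated cells, by 0.82 ± 0.20 and 1.13 ± 0.24 (adjusted p = 0.0129 and 0.00285).

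In the kynurenine pathway and tryptophan supply list, without IDO1, 2 of 12 measured genes were higher with TNF 100, 2 lower and 8 not called, where 16.3% of all probe sets were called; the median was -0.083. KYNU, the kynureninase that acts downstream of IDO1, rose by 0.64 ± 0.20 (adjusted p = 0.0127), from -0.22 at 4 h to 1.26 at 16 h. That dependence of its TNF difference on time, 1.48 ± 0.50, did not pass limma's F test (adjusted p = 0.243). The amino acid transporter SLC6A14 rose by 1.54 ± 0.23 (5.06e-05). DDC, the aromatic amino acid decarboxylase, fell by 0.48 ± 0.13 (0.00579). CYP1B1, a target of the aryl hydrocarbon receptor that kynurenine can bind, was called with a mean near 0, at -0.63 at 4 h and 0.56 at 16 h (0.00186), and AHR itself, named after its values were seen, did not pass at -0.37 ± 0.25 (0.438).

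Of the other cytosolic aminoacyl-tRNA synthetase genes few were called with TNF, and 9 of 15 were higher at 16 h than at 4 h in untreated cells. With TNF 100 none of 15 was called against untreated cells (median -0.104), where 16.3% of all probe sets were called. In EGF-treated cells 1 was lower, where 14.4% were called, and in insulin-treated cells 3 were higher, where 20.3% were called. With TNF 5, 2 were called, where 6.81% of all probe sets were called. CARS1 was higher by 0.28 ± 0.09 (adjusted p = 0.0128). TARS1 had a mean near 0, at 0.09 ± 0.08 (0.0285), with -0.16 at 4 h, 0.58 at 8 h and -0.16 at 16 h. From 4 h to 16 h in untreated cells none of the 15 was lower and 6 were not called, where 9.59% of all probe sets were called, and the median was 0.60 against 0.011 for all genes. SARS1 rose by 1.18 ± 0.17 (adjusted p = 1.41e-06), TARS1 by 0.65 ± 0.14 (2.15e-06), GARS1 by 1.199 ± 0.187 (6.11e-06) and CARS1 by 0.72 ± 0.16 (0.000191), and WARS1 stood at 0.62 without passing. Genes of the ATF4 and amino acid response, which is known to drive these enzymes, had 11 of 13 higher over the same time and a median of 1.54. Any part of that response in the synthetase or WARS1 values was not tested. ATF3 rose by 2.77 ± 0.16 (2.39e-14) and TRIB3 by 2.57 ± 0.16 (1.28e-13). That list had 3 of 13 higher and 2 lower with TNF 100 (median 0.003, 16.3% of all probe sets called). With TNF 5, 6 were higher and 1 lower (median 0.137, 6.81% called). The lower 1 was TRIB3, with a mean of -0.04 ± 0.09 but 0.51 at 8 h. With TNF 100 in EGF-treated cells 2 were higher and 3 lower (median 0.006, 14.4% called). With TNF 100 in insulin-treated cells 10 were higher and 1 lower (median 0.385, 20.3% called). Of the 29 interferon-gamma targets 6 were higher and 2 lower with time in untreated cells (2 and 2 after median centring), where 9.59% of all probe sets were called, CXCL9 falling by 1.41 ± 0.15 (4.29e-09).

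**Figure D5:**
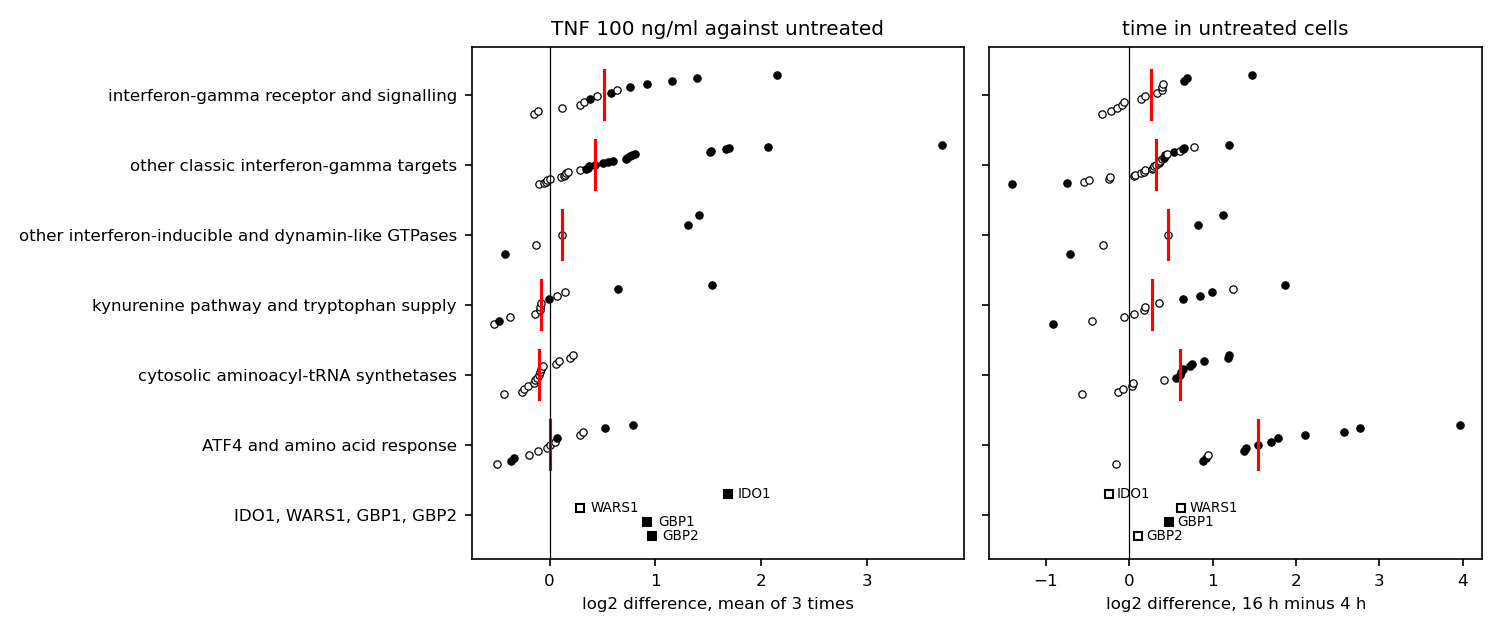
Log2 difference of each listed gene with TNF 100 ng/ml against untreated cells (left, mean of 3 times) and at 16 h against 4 h in untreated cells (right); filled circles have an adjusted p under 0.05, vertical bars are list medians and squares are the 4 genes. The interferon-gamma lists have medians of 0.515 and 0.43 on the left, and the synthetase and ATF4 lists 0.60 and 1.54 on the right, where WARS1 stands at 0.62.

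Across the 27 group means, which share their arrays, the presence of TNF and the times, other genes could be ranked by how closely they tracked each of the 4 (Pearson correlation of log2 means against 8104 genes, given as a description). Most like IDO1 were STAP2 (0.979), RHBDF2 (0.978), C1S (0.977), C1R (0.973) and DRAM1 (0.971), of which C1S and C1R are proteases of the complement cascade. Most like GBP2 were HLA-DOB (0.972), C1S (0.953), MIA (0.952), CTSS (0.949) and ATP2B4 (0.939), and most like GBP1 were ASS1 (0.971), IFIH1 (0.963), ISG20 (0.959), JAK1 (0.944) and ITGAV (0.943). WARS1 was tracked by HLA-B (0.946) and B2M (0.944), which form class I molecules, and by IFITM3 (0.933), EIF1 (0.923) and TMSB10 (0.920). Among the 4 genes the correlation was 0.920 for IDO1 with GBP2, 0.908 for IDO1 with GBP1, 0.865 for GBP1 with GBP2, 0.655 for IDO1 with WARS1 and 0.508 for GBP2 with WARS1.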

How the data were processed

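Per the submitters' processing notes the authors made the values with MAS5, whose version is not given in the sources used here; the deposited values are linear signal intensity with the same trimmed mean (2% cut from each end) on every array. All 54 arrays have 2 replicates per group, which limits precision. Signals were taken as log2 after 12.49, their 10th percentile, was added. Of 22283 probe sets 68 controls were left out, and 13422 of 22215 had a group mean of at least 138.9, the median of all values, in 1 of 27 groups or more. limma 3.58.1 in R 4.3.3 fitted the 27 group means (27 residual degrees of freedom, intensity trend), with F tests over the 3 times, or over 8 h and 16 h against 4 h for time, and Benjamini-Hochberg adjustment at 0.05; the fit was tested on simulated data. By the platform annotation 19065 probe sets have 1 symbol, 1043 several and 2107 none. The 4 genes and all lists were chosen with earlier results of these data known. The genes named were the 4 genes, up to 4 listed genes of smallest adjusted p per list and others of their pathway, and the 5 most alike.

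Same-numbered arrays had residuals that correlated over 0.1 in 36 of 36 pairs of groups at 8 h (0.286 to 0.576). The counts were 27 of 36 at 4 h and 31 of 36 at 16 h. The main fit used no block, so its calls leave any pairing of arrays out. As an alternative, the numbers were taken to pair arrays at 8 h only, a block chosen after seeing the data. Some calls changed with it, as given above. The alternatives were other pseudocounts, filters, scalings, blocks and samples, and leaving out each array.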

Additional observations from a re-analysis of the deposited data

Results flagged for a closer look

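The difference between TNF-treated and untreated cells in IDO1 changed with time at both doses, by limma's F test of that change itself with Benjamini-Hochberg adjustment. At 100 ng/ml the difference at 16 h exceeded that at 4 h by 2.65 (adjusted p = 8.29e-07). At 5 ng/ml it did so by 1.71 (adjusted p = 0.000573). Both comparisons use the same untreated arrays.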

How the results depend on the processing

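Over 402 results of the 6 probe sets and 10194 alternatives, 10031 kept their side of the threshold, 95 lost a call, 68 gained one and 0 called values changed sign. These counts pool called results with uncalled ones, many of them far from the threshold, and the alternatives reuse the same arrays. Of the 4 genes, 1 was called over time in untreated cells; 0 were without the filter, after median centring, without the intensity trend, without the 8 h arrays of replicate 2, with only that treatment in the fit and by each gene's other probe set, 2 after quantile normalization and with the replicate number as a block at 8 h, and 0 to 1 when single arrays were left out. With a replicate block within each time 1 gene rather than 0 was called between the TNF doses (IDO1, adjusted p = 0.00362), for insulin alone (GBP2, 0.0317) and for insulin added to TNF 100 (IDO1, 0.0453), and with a block over all times 1 between the TNF doses (IDO1, 0.00618). Calls over all probe sets also grew with the block within each time, from 170 to 503 between the TNF doses. For insulin alone they grew from 31 to 160, and for insulin added to TNF 100 from 67 to 378. Over time under TNF 100, 1 rather than 3 was called with only that treatment in the fit, and under TNF 5, 1 rather than 2 by the other probe sets. The cause was not tested. For TNF 100 against untreated cells 2194 probe sets were called, 1160 with only the treatments compared and 3347 with the block within each time; for TNF 5 the counts were 914, 490 and 1705, and over time in untreated cells 1287, 360 and 2176, or 690 to 1225 without single arrays.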
